A study of Homo sapiens with 4 samples.

Results

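The nuclear genes of the respiratory chain examined here are 88 protein-coding genes of the 58812 listed in each count file. They were chosen by symbol alone: names starting with NDUFA, NDUFB, NDUFC, NDUFS or NDUFV and a number, SDHA to SDHD, UQCR, COX4 to COX8, and ATP5F1, ATP5M or ATP5P. Genes of these names number 266 when pseudogenes and other biotypes are included. By complex the members are 39 of complex I, 4 of complex II, 9 of complex III, 17 of complex IV and 19 of complex V. NDUFA4 and NDUFA4L2 were placed in complex I by name, although NDUFA4 is known as a complex IV subunit. Of the 88, 83 passed the filter on low counts and were tested. The untested 5 were NDUFC2-KCTD14, COX7B2 and COX6A2, with a count of 0 in all 4 libraries, COX8C with 2 counts in 1 empty vector library, and COX4I2 with 2 counts in the other.

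The study measured total RNA of A549, a long-established epithelial line from a human lung carcinoma, by sequencing after ribosomal RNA depletion. Cells of both groups were transfected with 1 µg of plasmid and harvested 24 hr later. The control group (2 libraries) received the empty vector pCMV6-Entry, and the other group (2 libraries) received SAMD9-Myc-DDK, a tagged form of SAMD9, which is an interferon-inducible antiviral protein. RNA came from all cells of a dish, and the share of cells that took up plasmid is not given in the sources used here. Whether the replicates were separate cultures is not stated either, so the p-values reflect the scatter among these libraries alone, and that scatter may be technical.

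The libraries held between 29301854 and 39670083 counts. SAMD9 itself had 444 and 400 counts with the empty vector and 220123 and 184350 with the SAMD9 plasmid, which fits the labels. Reads of the plasmid copy and of the cells' own gene cannot be told apart. Of 6 epithelial markers, KRT8, KRT18 and KRT7 were abundant in every library, CDH1 and EPCAM had at least 159 counts in each, and KRT19 had at most 10 and was not tested. In contrast, 4 of 5 leukocyte markers and all 3 endothelial markers had at most 13 counts in any library. Of the leukocyte markers 1 passed the filter on low counts, and it was not called (log2 fold change -0.01). Of the 4 fibroblast markers, only COL1A1 passed the filter on low counts. It rose by 1.60 on the log2 scale (45 and 70 counts against 194 and 160), and DCN had no count. The part of COL1A1 in the results below was not tested.

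Complexes I to IV pass electrons from NADH and succinate to oxygen, all but complex II pump protons across the inner mitochondrial membrane, and complex V, the ATP synthase, uses the returning protons to make ATP. Some core subunits of each complex other than complex II are encoded in mitochondrial DNA, and all other subunits come from the nucleus. Transcription factors NRF1, GABP (an ETS family factor) and YY1 are known to act at many of these nuclear promoters.

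The promoters of 4 genes are shown for members whose values are described below: the largest rise and the fall in complex I, and both complex IV members with the lowest p that had an entry. Each run is taken from RefSeq (GRCh38.p14) and covers 200 bases before and 30 bases after the annotated start. Capitals mark a match to the NRF1 letters (GCGCA, any base, GCGC), the ETS letters CCGGAAG or the YY1 letters AANATGGCG on either strand.
NDUFA9, chr12:4648914-4649143, plus strand: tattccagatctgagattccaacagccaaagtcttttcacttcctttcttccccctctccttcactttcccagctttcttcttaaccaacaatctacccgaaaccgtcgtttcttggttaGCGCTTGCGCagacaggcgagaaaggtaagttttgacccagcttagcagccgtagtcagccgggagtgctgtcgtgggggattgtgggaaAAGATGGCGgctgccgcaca
NDUFV3, chr21:42893109-42893338, plus strand: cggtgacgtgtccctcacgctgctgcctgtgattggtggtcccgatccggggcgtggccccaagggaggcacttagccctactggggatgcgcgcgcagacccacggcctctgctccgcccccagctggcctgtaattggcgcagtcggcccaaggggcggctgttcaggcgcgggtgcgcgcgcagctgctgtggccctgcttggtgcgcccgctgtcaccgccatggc
COX5B, chr2:97645862-97646091, plus strand: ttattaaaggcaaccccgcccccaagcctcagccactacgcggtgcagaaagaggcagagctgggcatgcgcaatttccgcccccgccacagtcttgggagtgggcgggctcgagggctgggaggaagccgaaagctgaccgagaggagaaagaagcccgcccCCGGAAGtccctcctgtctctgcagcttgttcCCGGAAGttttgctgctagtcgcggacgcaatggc
COX8A, chr11:63974420-63974649, plus strand: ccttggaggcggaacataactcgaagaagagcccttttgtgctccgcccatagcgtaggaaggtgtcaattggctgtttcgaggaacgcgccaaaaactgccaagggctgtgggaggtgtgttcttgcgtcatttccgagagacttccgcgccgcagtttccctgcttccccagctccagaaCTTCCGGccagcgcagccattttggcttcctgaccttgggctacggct

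The NDUFA9 run holds an NRF1 match on the minus strand before the start and a YY1 match after it. In COX5B 2 ETS matches begin before the start, and COX8A has 1 on the minus strand. The NDUFV3 run, which lies within the gene span listed in the files (chr21:42879644-42913304), holds none of these letters. COX7A1 has no entry. Windows of 250 bases before to 50 after the start were found for 69 of the 88 members. These include the untested NDUFC2-KCTD14, COX7B2, COX8C and COX6A2, whereas the promoters set beside them are of tested genes only. NRF1 letters were in 24.6% of the 69 windows, against 11% of 11262 promoters of tested protein-coding genes, and ETS letters were in 29% against 18.1%. YY1 letters were in 23.2% of member windows against 6.44%. Letters of the interferon response element (GAAA, any 2 bases, GAAA) were in 0 of the 69 windows, against 2.85% of promoters of tested protein-coding genes, and NF-kB letters (GGG, any 2 bases, TTTCC) were in 2.90% against 2.10%. Among the complex IV members that rose, 8 had a window, of which 5 held ETS letters and 0 held NRF1 letters. ETS letters were in 15.6%, 66.7%, 42.9%, 35.7% and 38.5% of the windows of complexes I to V, in that order. Complex II had 3 windows only. Whether such letters go with a rise was not tested. These are matches of letters, not measured sites.

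Most members differed little between the groups. Of the 83 tested, 15 rose and 1 fell with SAMD9 by edgeR's quasi-likelihood test (Benjamini-Hochberg adjusted p under 0.05 over 19814 genes). Of all genes tested 27.5% were called: 15.3% rose and 12.2% fell; among protein-coding genes these shares were 18.4% and 15.4%. The share of members that rose was thus near the background, and the share that fell, 1 of 83, was below it with TMM scaling. The median log2 fold change of the members was 0.09, against -0.01 for all genes tested, and 79 members changed by less than 0.5 in size. By complex, the counts differed, and that difference was not tested. Complex IV had 9 of 13 tested members higher with a median of 0.25. Complex I had 4 of 38 higher and 1 lower with a median of 0.04, and complex V had 2 of 19 higher with a median of 0.07. In complexes II and III no member was called. Of the 83 tested members, 32 had both SAMD9 libraries above both empty vector libraries and 9 had both below. Of all 19814 genes tested, 6156 (31.1%) stood above and 6124 (30.9%) below. The share of members below was thus smaller than that of all genes with this scaling. In bulk RNA, fewer cells and less RNA per cell cannot be told apart.

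These small rises depended on how the libraries were scaled. When the libraries were scaled by total counts in place of TMM, the median of all genes moved by -0.19 on the log2 scale, 2 members rose and 15 fell, and the background shares became 9.96% higher and 28.5% lower. Such a change moves all genes by nearly the same amount, so the gap between a complex and the median of all genes could hardly change. This gap was 0.26 for complex IV and 0.05 for complex I under either scaling, which is no test of the scaling. The number of members that rose was 8 when empty vector replicate 1 was left out, was 21 when replicate 2 of that group was left out, and was 6 when either SAMD9 library was left out. Of the 16 called members, NDUFA9 and NDUFV3 were the only ones called in all 10 alternatives run.

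**Figure D1:**
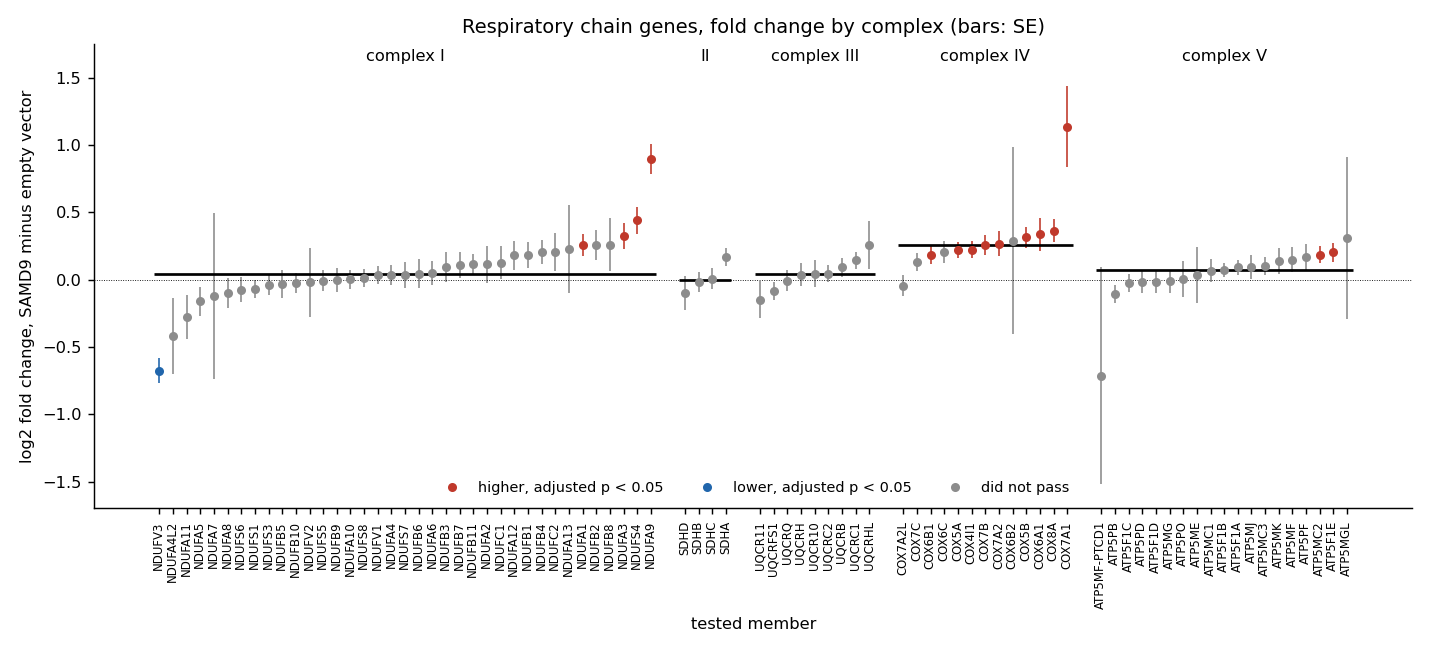
Log2 fold change (SAMD9 minus empty vector, vertical axis) of the tested members grouped by complex (1 complex I member that did not pass is not drawn but counts in the median), with points for members, thin bars for the SE, thick black lines for the median of each complex and colours for the call at an adjusted p under 0.05. Complex IV has 9 of 13 members in red around a median of 0.25, while NDUFA9 (0.90) and NDUFV3 (-0.68) stand at the ends of complex I. The number of members above 0 is 57 here and 22 under total-count scaling, where COX6B1 and ATP5MC2 are the called members that turn sign.

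In complex I, the NADH dehydrogenase that starts the chain, the largest rise was that of NDUFA9, an accessory subunit where the arm in the matrix meets the membrane arm. NDUFA9 (chr12:4649095-4694317, plus strand) stood at 13.6 and 14.1 CPM (counts scaled to a common library size, TMM-normalised) with the empty vector and at 26.1 and 25.5 CPM with SAMD9. The groups were apart, with little spread inside each. Its log2 fold change was 0.90 (SE 0.11, edgeR adjusted p = 1.4e-06), or 1.86-fold, and it ranged from 0.71 to 0.92 over the 10 alternatives. Overlapping genes (2) cover 9.89% of its exon bases and had at most 1 count in any library. Of the 31-mers of NDUFA9, 17.5% also occur in transcripts of other genes. The pseudogene NDUFA9P1 had 6 and 6 counts with the empty vector and 23 and 22 with SAMD9, few beside the 427 to 974 counts of NDUFA9. AKAP3, an anchoring protein gene of the sperm flagellum on the opposite strand, lies 48 bases from NDUFA9 in the files. AKAP3 had 18 and 17 counts with the empty vector and 49 and 45 with SAMD9. This difference was 1.405 on the log2 scale (SE 0.48, edgeR adjusted p = 0.031). DYRK4, a kinase gene 33793 bases away, rose as well, by 0.47.

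NDUFV3, an accessory subunit of the NADH-binding end of complex I, was the only member that fell under TMM scaling. It stood at 39.7 and 39.4 CPM with the empty vector and at 24.4 and 25.1 CPM with SAMD9, again with both groups tight and apart. Its log2 fold change was -0.68 (SE 0.09, edgeR adjusted p = 5.7e-06), and it lay between -0.86 and -0.65 over the alternatives. No other gene overlaps its exons. Of its 31-mers, 17.5% also occur in transcripts of other genes. WDR4, whose listed span ends 76 bases from that of NDUFV3, did not pass (log2 fold change 0.16, SE 0.08).

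NDUFS4, an accessory subunit of the same NADH-binding end in which mutations are known to cause Leigh syndrome, stood at 23.2 and 23.8 CPM with the empty vector and at 33.3 and 30.5 CPM with SAMD9. Both SAMD9 libraries were above both controls. The log2 fold change was 0.44 (SE 0.10, edgeR adjusted p = 0.0018), and the call was lost only under total counts (adjusted p = 0.053). NDUFA3 (0.32) and NDUFA1 (0.26), small subunits of the membrane arm, also rose and were named after their values were seen. NDUFA3 lost the call in 3 alternatives, and its control libraries were spread from 35.5 to 43.6 CPM. NDUFA1 lost it in 4, and 44.5% of its exon bases are shared with RNF113A, which did not pass (log2 fold change -0.11).

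The other 33 tested complex I members lay between -0.42 and 0.26 and did not pass. They include the core subunits NDUFS1 (-0.07) and NDUFV1 (0.03), which carry iron-sulfur clusters or the flavin and were named after their values were seen. NDUFA4L2, a hypoxia-inducible paralog of NDUFA4, stood at 3.07 and 2.72 CPM with the empty vector and at 2.39 and 1.92 CPM with SAMD9 (log2 fold change -0.42, SE 0.28). NDUFA4 differed by 0.03 (SE 0.07).

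Complex II is succinate dehydrogenase, which links the citric acid cycle to the chain, and its 4 nuclear subunits make up the whole enzyme. None of the 4 was called by edgeR or DESeq2, and 1 had an unadjusted p under 0.05. SDHA, the flavoprotein, stood at 125.9 and 136.9 CPM with the empty vector and at 146.1 and 149.0 CPM with SAMD9 (log2 fold change 0.17, SE 0.07, edgeR adjusted p = 0.064). The iron-sulfur subunit SDHB differed by -0.02 (SE 0.07), and the membrane anchors SDHC and SDHD differed by 0.01 (SE 0.08) and -0.10 (SE 0.13). SDHA was called higher without empty vector replicate 2 and in the fit of protein-coding genes alone.

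Complex III, the cytochrome bc1 complex, passes electrons from ubiquinol to cytochrome c. No member of its 9 was called by edgeR or DESeq2, and 1 had an unadjusted p under 0.05. The core subunit UQCRC1 stood at 146.3 and 141.8 CPM with the empty vector and at 162.0 and 156.0 CPM with SAMD9 (log2 fold change 0.14, SE 0.06, edgeR adjusted p = 0.101). UQCRFS1, the Rieske iron-sulfur protein, had overlapping groups and differed by -0.09 (SE 0.06). UQCRHL, a paralog of the hinge subunit gene UQCRH, differed by 0.26 (SE 0.18) and UQCRH by 0.04 (SE 0.09). These paralogs share 31-mers (21.7% of those of UQCRHL), so their counts may not be separate.

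Complex IV, cytochrome c oxidase, reduces oxygen. Of its 13 tested members 9 rose and 0 fell, and 11 had both SAMD9 libraries above both controls. Apart from COX7A1, the 8 others that rose had log2 fold changes between 0.18 and 0.36, with COX6B1 turning sign under total counts. By DESeq2, which called 12.8% of all genes higher and 8.62% lower, 6 members of complex IV rose. The calls numbered 1 under total counts, 5 when empty vector replicate 1 was left out, 9 when its replicate 2 was, and 3 when either SAMD9 library was left out. Among the 8 tested members with little sequence shared with other genes, 5 rose.

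COX7A1, the heart and skeletal muscle form of subunit 7A, had 44 and 50 counts with the empty vector and 105 and 103 with SAMD9. In CPM these were 1.41 and 1.49 against 2.82 and 3.60, so the groups did not overlap. The log2 fold change was 1.14 (SE 0.30, edgeR adjusted p = 0.0062), or 2.20-fold, and the call was lost without SAMD9 replicate 2 (adjusted p = 0.064). No other gene overlaps its exons, and none shares its 31-mers. Of 5 muscle markers, MYH7, MYH6, CKM and TNNT2 had at most 11 counts. ACTA1 had 61 and 68 against 112 and 77 counts and did not pass (log2 fold change 0.52). The neighbour CAPNS1, a calpain subunit gene 569 bases away on the opposite strand, rose by 0.27.

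The subunit COX8A, a small single-helix protein, stood at 34.5 and 39.6 CPM with the empty vector and at 47.8 and 47.6 CPM with SAMD9. The log2 fold change was 0.36 (SE 0.09, edgeR adjusted p = 0.0034), lost only under total counts (adjusted p = 0.129). A gene without counts overlaps 34.5% of its exon bases. COX5B, a zinc-binding subunit on the matrix side, stood at 61.4 and 69.1 CPM against 84.8 and 77.6 CPM. It rose by 0.32 (SE 0.08, edgeR adjusted p = 0.0039) and lost the call under total counts and without SAMD9 replicate 1.

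COX4I1, known for the binding of ATP that slows the enzyme, stood at 175.2 and 193.6 CPM with the empty vector and at 216.3 and 214.2 CPM with SAMD9. It rose by 0.22 (SE 0.06). COX6B1, which faces the intermembrane space near cytochrome c, stood at 146.3 and 163.2 CPM against 171.5 and 180.1 CPM and rose by 0.18 (SE 0.07), but its sign turned under total counts. Neither gene's groups overlapped, yet for COX6B1 the control libraries lay farther from each other than the higher control lay from the lower SAMD9 library. COX6A1 (0.34), COX7A2 (0.27), COX7B (0.25) and COX5A (0.22) also rose, COX5A being named after its values were seen. Each of these lost its call in 3 or 4 of the 10 alternatives.

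The complex IV members that did not pass were COX6C (log2 fold change 0.20, SE 0.08), COX7C (0.13, SE 0.07), COX7A2L (-0.04, SE 0.08) and COX6B2 (0.29, SE 0.70). COX6C and COX7C were named after their values were seen. COX7A2L, a paralog of subunit 7A known for joining complexes III and IV into supercomplexes, had overlapping groups. COX6B2, the testis form, had 20 and 13 counts against 39 and 5.

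**Figure D2:**
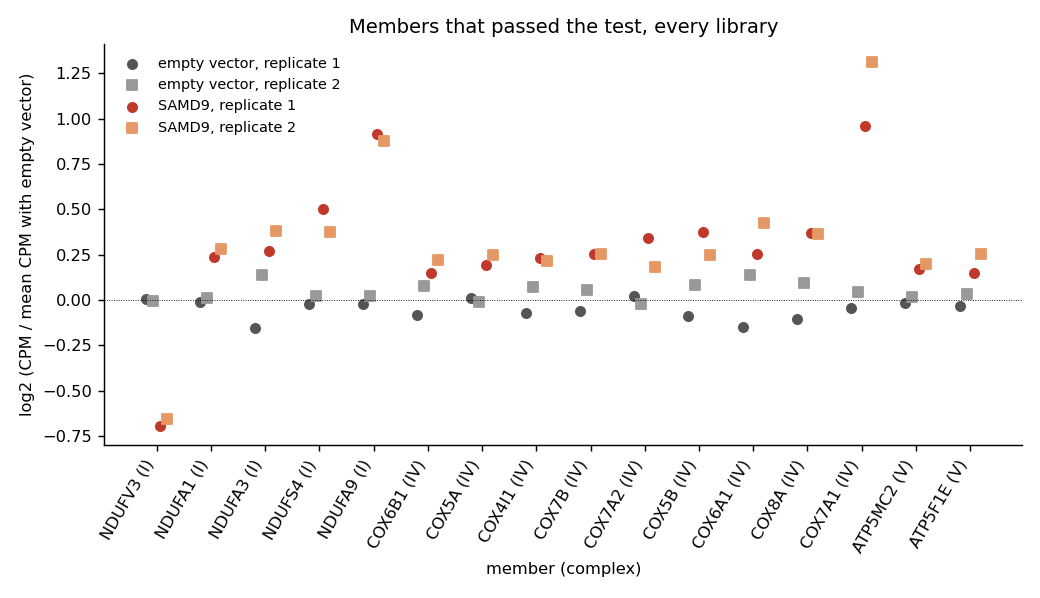
Every library of the 16 called members, as log2 of its TMM-normalised CPM over the mean of the empty vector libraries (vertical axis), with grey for the empty vector, red and orange for SAMD9, circles for replicate 1 and squares for replicate 2. Both SAMD9 libraries of NDUFA9 (26.1 and 25.5 CPM) and COX7A1 (2.82 and 3.60 CPM) lie far above the controls, while most other steps are below 0.5; COX6B1 and ATP5MC2 turn sign under total-count scaling.

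Complex V had 2 of 19 members higher. ATP5MC2, 1 of the 3 genes for the membrane ring's subunit c, stood at 118.0 and 121.0 CPM with the empty vector and at 134.3 and 137.1 CPM with SAMD9. It rose by 0.18 (SE 0.06, edgeR adjusted p = 0.037), lost the call in 6 of 10 alternatives and turned sign under total counts. Its paralogs ATP5MC1 (0.07, SE 0.09) and ATP5MC3 (0.10, SE 0.07), which encode the same mature protein, did not pass. ATP5F1E, the epsilon subunit of the central stalk, stood at 76.62 and 80.02 CPM against 87.0 and 93.3 CPM and rose by 0.20 (SE 0.07, edgeR adjusted p = 0.039), also lost in 6 alternatives. ATP5PF, a stalk subunit, differed by 0.17 (SE 0.10), and ATP5F1B, the catalytic beta subunit named for its level, by 0.07 (SE 0.05). ATP5MG, a membrane subunit, differed by -0.01 (SE 0.08), and its paralog ATP5MGL had between 11 and 25 counts.

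**Figure D3:**
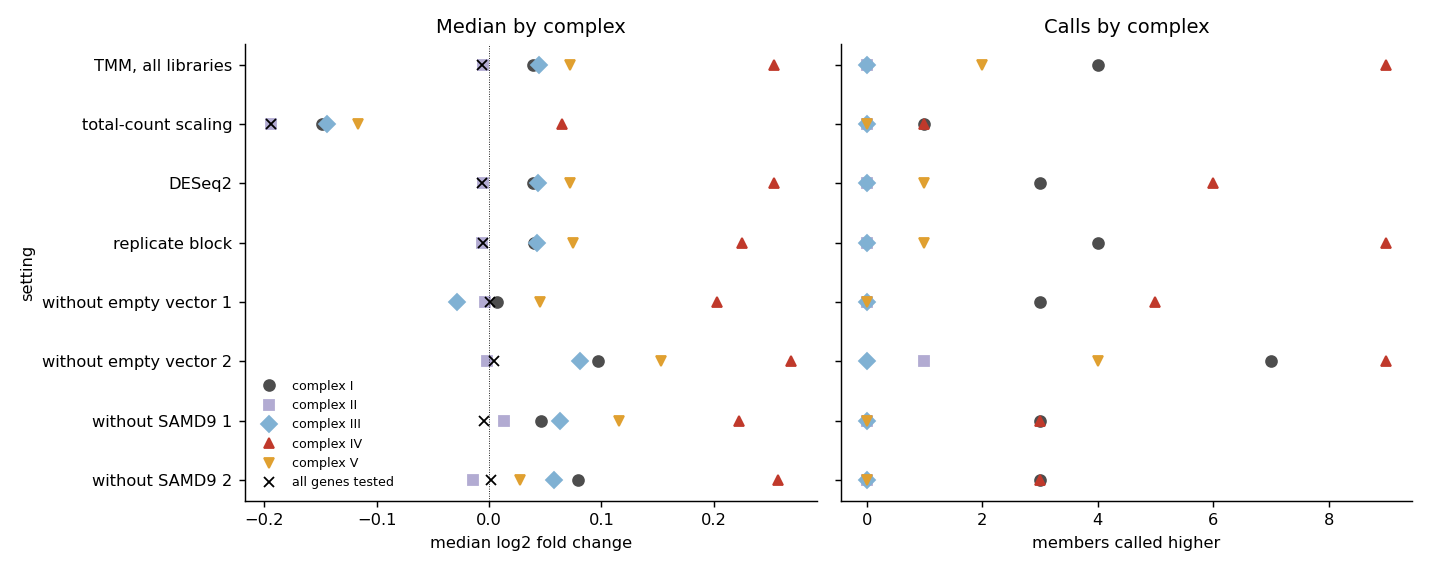
Median log2 fold change (left) and number of members called higher (right) for each complex under 8 settings on the vertical axis, with coloured symbols for the complexes and crosses for all genes tested. Total-count scaling moves all medians together by about -0.19, complex IV stays to the right of the other complexes in each setting drawn, and its calls range from 1 to 10 over all settings run.

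Levels per gene length (RPKM with TMM factors) placed ATP5F1B first with 291 ± 13.4 (SD, n = 2) with the empty vector and 306 ± 5.65 with SAMD9. COX6B1 followed at 165 ± 12.7, then COX5A at 100.5 ± 0.849 and NDUFS5 at 97.8 ± 3.06, a pair within their spread. NDUFS5, an accessory subunit of complex I, is named for its level, after its values were seen. Summed over members, complex IV was at 547 ± 30.6 RPKM with the empty vector and 644 ± 6.76 with SAMD9. The sums were 761 ± 31.3 and 801 ± 1.21 for complex I, 622 ± 26.1 and 653 ± 21.1 for complex V, 266 ± 10.7 and 274 ± 3.95 for complex III, and 54.1 ± 0.731 and 55.3 ± 0.0596 for complex II. Complex IV members thus made up a larger sum relative to complex I in each SAMD9 library: the ratio was 0.711 and 0.726 in the controls, against 0.798 and 0.808 with SAMD9. A ratio within a library does not depend on the scaling. The ratio of complex III to complex I was 0.349 and 0.349 against 0.339 and 0.345. The ratios are given without a test; 2 libraries against 2 cannot give an exact permutation p below 0.333. As a share of all counts, the members took 0.548% ± 0.0181 with the empty vector and 0.511% ± 0.0029 with SAMD9.

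**Figure D4:**
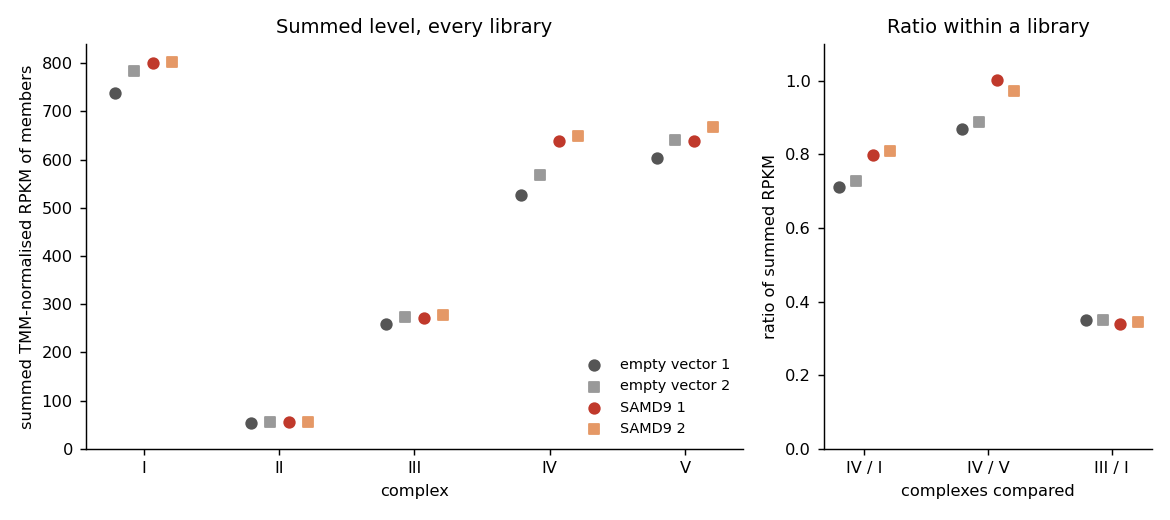
Summed TMM-normalised RPKM of the members of each complex in every library (left) and ratios of these sums within a library (right), with both vertical axes starting at 0 and points for libraries. Complex IV is at 639 and 649 in the SAMD9 libraries against 526 and 569 in the controls, and its ratio to complex I is 0.798 and 0.808 against 0.711 and 0.726.

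Several complex IV subunits have a tissue form and a ubiquitous form, and in most of these pairs the tissue form had few or no counts. COX7A1 was the most abundant of the complex IV tissue forms: its RPKM was 7.98% and 8.73% of that of COX7A2 with the empty vector and 12.8% and 18.3% with SAMD9. COX6B2 was at most 0.150% of COX6B1 in any library. COX4I2 had counts in 1 library only, at 0.252% of COX4I1, below the 0.378% that 3 counts would give there. COX6A2 and COX7B2 had none, where 3 counts would be at most 1.49% of COX6A1 and 0.602% of COX7B; such floors cover counting error only.

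The genes that build, feed and regulate the chain were examined as lists, and their counts are read beside the 15.3% of all genes that rose and the 12.2% that fell, or 9.96% and 28.5% under total counts. Factors that assemble complex I fell in 3 of 18 cases and rose in 0 (median -0.08): NUBPL, which supplies iron-sulfur clusters, fell by 0.60 (SE 0.14), COA1 by 0.32 and NDUFAF5 by 0.30. Of 9 complex III assembly factors 2 fell and 0 rose (median -0.19), UQCC6 by 0.64 (SE 0.16) and LYRM7, which handles the Rieske protein, by 0.58 (SE 0.12). The complex I list had 2 falls by DESeq2, 1 rise beside its 3 falls without empty vector replicate 1, and 1 fall when either SAMD9 library was left out. The complex III list had 1 fall without empty vector replicate 1. Under total counts 8 of the 18 and 8 of the 9 fell. Of 25 complex IV assembly factors 1 rose and 1 fell (median 0.09). Under total counts 1 rose and 6 fell, and there were 2 falls without empty vector replicate 1. With SAMD9 replicate 2 left out there were 0. SCO2, a copper chaperone, stood at 4.51 and 4.87 CPM against 9.60 and 11.5 CPM and rose by 1.17 (SE 0.17). Of its exon bases 61.6% are overlapped, 36.7% by ENSG00000272821, which rose by 1.52, and 24.9% by TYMP, which rose by 1.83, so its counts may hold reads of both. COA7 fell by 0.35 (SE 0.10). The lists for complex II (4 genes) and complex V assembly (5 genes) had no call by edgeR with TMM or by DESeq2. The complex V list had 3 falls under total counts, and 1 each in the fit of protein-coding genes and without empty vector replicate 1. Of 4 genes listed as subunits outside the name pattern or paralogs, 3 were tested. These, CYC1, NDUFAB1 and DMAC2L, did not pass with TMM. Of these, 1 fell under total counts and 1 rose without empty vector replicate 2.

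Among 18 electron carriers and enzymes that feed ubiquinone, 2 rose and 1 fell (median -0.12). SQOR, which oxidises hydrogen sulfide and hands the electrons to ubiquinone, stood at 13.5 and 13.7 CPM against 40.0 and 44.5 CPM and rose by 1.63 (SE 0.10, edgeR adjusted p = 2.1e-11). GPD2, the mitochondrial glycerol phosphate dehydrogenase, rose by 0.69 (SE 0.07) and PDSS1, an enzyme of ubiquinone synthesis, fell by 0.57 (SE 0.13). Both rises were larger than those of the complex V subunits that passed. Under total counts 2 of these genes rose and 12 fell, and without empty vector replicate 1 there were 3 falls.

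Of 19 tested transcriptional regulators of respiratory genes 1 rose and 8 fell (median -0.24). PPARGC1A, a coactivator of mitochondrial biogenesis, fell by 0.57 (SE 0.11), GABPB2 fell by 0.58 (SE 0.13) and GABPB1, the other GABP beta subunit, rose by 0.37 (SE 0.08). NRF1, named after its values were seen, stood at 32.0 and 25.2 CPM against 22.9 and 23.1 CPM and fell by 0.31 (SE 0.11, edgeR adjusted p = 0.044). Its groups did not overlap, yet its control libraries lay farther from each other than the lower control lay from the higher SAMD9 library. Under total counts 0 of these regulators rose and 12 fell (median -0.43). By DESeq2 the list had 5 falls, as it did when empty vector replicate 1 or SAMD9 replicate 2 was dropped, and it had 4 without SAMD9 replicate 1. Without empty vector replicate 2 it had 2 rises. Of 6 tested mitophagy genes 3 rose and 0 fell: OPTN by 2.11, CALCOCO2 by 1.21 and BNIP3 by 0.47. Under total counts 3 of the 6 rose and 2 fell. A list of 16 other genes of mitochondrial RNA and membranes had 1 rise and 3 falls (median 0.01), with OPA1 at -0.31, VDAC2 at 0.27 and LRPPRC at -0.23. Under total counts 0 of the 16 rose and 10 fell. There were 5 falls without empty vector replicate 1, 2 rises without empty vector replicate 2, and 0 rises and 1 fall without SAMD9 replicate 2.

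The 13 mRNAs encoded in mitochondrial DNA, whose products join the nuclear subunits, had 2 rises and 0 falls (median 0.02), and 0 rises and 5 falls under total counts. MT-CO1, the catalytic subunit of complex IV, stood at 6985 and 6124 CPM against 7490 and 7518 CPM (log2 fold change 0.20, SE 0.05, edgeR adjusted p = 0.0049). MT-CO2 was at 2382 and 1813 CPM against 2408 and 2426 CPM (0.20, SE 0.08), and MT-CO3, the third mitochondrial subunit of the complex, named after its values were seen, differed by 0.02 (SE 0.05). By DESeq2 1 of the 13 rose, and with no filter on low counts 5 rose and 2 fell. The control libraries differed widely: without empty vector replicate 1 the list had 11 rises and a median of 0.32, and without empty vector replicate 2 it had 1 rise, 7 falls and a median of -0.09. Without SAMD9 replicate 1 it had 2 rises and 2 falls.

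**Figure D5:**
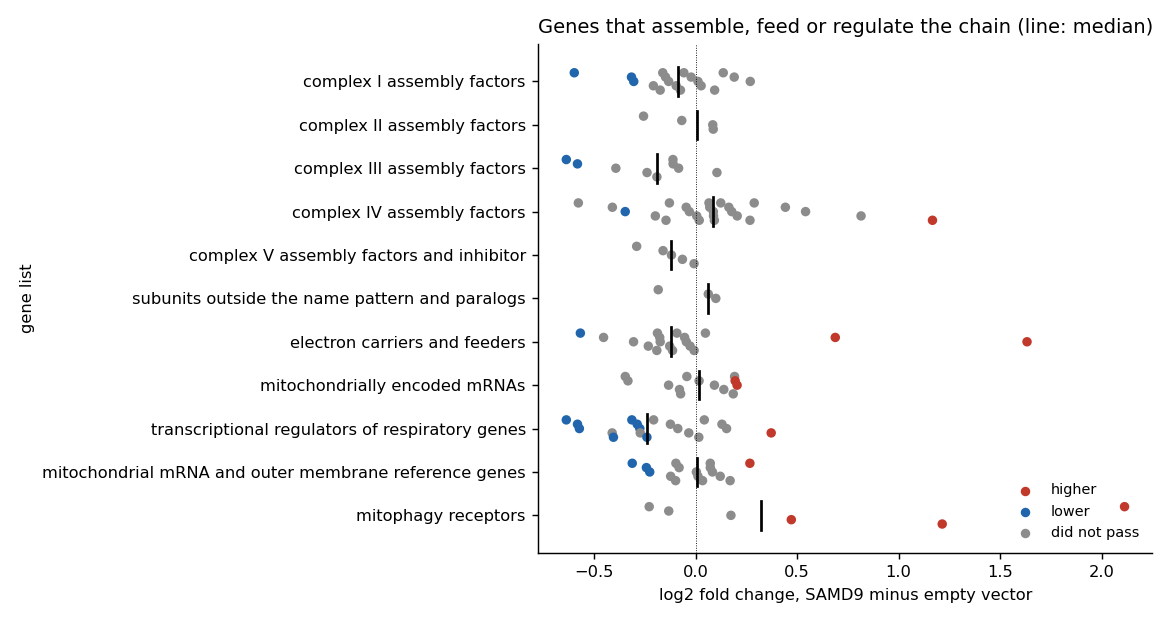
Log2 fold change (horizontal axis) of every tested gene of the lists on the vertical axis, with a black line for each median, red for genes that rose, blue for genes that fell and grey for genes that did not pass. The regulators hold 8 of the blue points, more than any other list drawn, and SQOR (1.63) and OPTN (2.11) lie farthest to the right.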

How the data were processed

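For every library the authors deposited a table of raw counts per gene, beside CPM (counts scaled by the library total) and RPKM (CPM per kilobase of listed length). Both scaled columns could be recomputed from the deposited counts, so tests used the counts. Per the submitters' processing notes, STAR 2.5.1a and featureCounts 1.4.6-p5 were used with build GRCh38. Strand setting and annotation release are not stated in the labels, so reads of overlapping genes cannot be told apart.

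Gene symbols were looked up by Ensembl ID in a names table (54836 matched) and biotypes in GENCODE release 29, where 84 of the 88 members had the same start and end. Testing was done with edgeR 4.0.16 (R 4.3.3): filterByExpr (minimum count 10, total 15) kept 19814 genes, scaling was by TMM, and a quasi-likelihood F-test with no covariate compared the groups. Calls were made at an adjusted p under 0.05 (Benjamini-Hochberg, over all genes tested). SE is the size of the log2 fold change over the square root of F. DESeq2 1.42.0 was an alternative. Scripts were tested on simulated data. Overlaps came from the exon coordinates deposited with the counts. The share of 31-mers found in transcripts of other genes came from GENCODE release 29 transcript sequences (Python 3.11.15, pandas 2.3.3).

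The members, lists and tests were chosen with earlier results of these data known. Members named are the 3 of lowest p in each complex, called members with a change of at least 0.5 (log2), isoform pairs and the SDH genes. Of each other list the rule names the 3 of lowest p, but for some lists, the mitochondrial mRNAs among them, the text gives fewer of these. The text marks genes named outside this rule. The main test did not pair samples by replicate number, and the labels do not say whether those numbers mark paired samples. The values of 1 member are not reported here.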

Additional observations from a re-analysis of the deposited data

How the results depend on the processing

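Under total counts in place of TMM, 1974 of all genes tested rose and 5653 fell, and of the members 2 rose and 15 fell, with a median of -0.10. By complex the rises and falls were then 1 and 10 in complex I, 0 and 1 in complex II, 0 and 1 in complex III, 1 and 1 in complex IV (median 0.07) and 0 and 2 in complex V. COX6B1 (-0.004929) and ATP5MC2 (-0.004941) turned sign. Median-of-ratios scaling changed none of these counts by over 1.5 times. Complex V rises numbered 1 by DESeq2 and 0 with no filter on low counts, and complex II had 1 rise in the fit of protein-coding genes. Deviations from the group mean had a correlation of 0.00416 between libraries of the same replicate number. With 2 libraries per group this value cannot show whether samples were paired. With the replicate number as a block complex V had 1 rise and the members 14. Leaving out 1 library at a time gave from 1466 to 2279 falls over all genes, 6 to 21 rises among the members, 3 to 7 in complex I, 0 to 1 in complex II, 3 to 9 in complex IV and 0 to 4 in complex V. The median then ran from 0.04 to 0.12 for the members and from 0.20 to 0.27 for complex IV. Where these leave a group with 1 library, that library is assumed to vary like the other group. The summed level of complex II had a log2 ratio of 0.07 by CPM in place of RPKM. Among members with little sequence shared with other genes, an alternative chosen after seeing the data, 6 rose and 0 fell, 5 of them in complex IV. This set leaves out NDUFA9 and NDUFV3, whose shares of 31-mers found in other genes exceed its limit of 10%. The cause of these changes was not tested beyond the construction of each alternative.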
